A study of Mus musculus with 6 samples.

Results

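The circadian clock genes described here are Per1, Per2, Per3, Cry1, Cry2, Arntl (also called Bmal1), Clock, Nr1d1, Nr1d2 and Dbp, taken by gene symbol from the count tables of mouse prefrontal cortex. All 10 are among the 54429 rows of each library, and all 10 passed the filter on low counts that left 24419 genes for testing. The libraries came from mice aged 6 to 8 weeks that had received AAV9, a viral vector that delivers genes to neurons, in the prefrontal cortex. In 3 libraries the virus carried green fluorescent protein (GFP), and in the other 3 it carried a short hairpin RNA against Kmt5b, a histone H4 lysine 20 methyltransferase linked to autism. The labels give the strain as C57BL6/J, while the design text names a C57BL/6 by C3H cross and counts 2 control mice, so a pair of GFP libraries may come from 1 mouse, and p-values measure the spread between libraries only. The RNA came from lysed tissue of all cell types, so fewer cells of a type and less RNA per cell cannot be told apart. A time of day of collection is not given in the sources used here.

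The clock runs in nearly every cell as a loop of transcription and repression. Clock, or its relative Npas2, pairs with Arntl and activates genes through E-box elements, among them the Per and Cry genes, whose proteins return to the nucleus and inhibit the pair. In a further loop the nuclear receptors Nr1d1 and Nr1d2 (REV-ERB alpha and beta) repress Arntl through elements called ROREs, and Dbp carries the rhythm to output genes through D-boxes. Arntl therefore peaks at about the opposite time of day from Nr1d1 and Dbp, with the Per genes following these, and in cortex the Per genes also respond to neuronal activity and to glucocorticoids.

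These elements are shown first as background to the loop, and the arms compared here were not taken from the matches. RefSeq windows from 250 bases before to 50 after the annotated starts (GRCm38.p6) were found for 9 of the 10 genes, and Per2 had no entry. Searched on both strands, the E-box CACGTG was in 7.15% of 32851 such windows of all genes, the D-box TTANGTAA in 2.32% and the RORE-like AANTAGGT in 2.3%. An E-box was found for Per1 and Cry1, D-boxes for Per3 and RORE-like matches for Arntl. The RORE letters were settled after earlier searches of these windows, so the Arntl matches cannot be weighed against the 2.3%. Cry2, Clock, Nr1d1, Nr1d2 and Dbp had none of these letters in the windows searched. Npas2, Ciart and Tef were searched as well. Npas2 had none of these letters, and Tef had an E-box in each of its windows. Ciart, an E-box-driven repressor of the Clock and Arntl pair, had 3 E-boxes, of which the closest pair is printed. Capitals mark the matches, and each stretch reads 5′ to 3′ on the strand of its gene.
Arntl, chr7:113207497-113207516, plus strand, in an annotated exon: tcggaAAGTAGGTtagtggt
Arntl, chr7:113207533-113207552, plus strand, in an annotated exon: gcagaAAGTAGGTcagggac
Per1, chr11:69098771-69098800, plus strand, within the gene between annotated exons, 5′ of an internal start: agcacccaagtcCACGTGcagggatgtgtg
Cry1, chr10:85185097-85185126, minus strand, 5′ of the gene: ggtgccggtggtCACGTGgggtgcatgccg
Per3, chr4:151044801-151044880, minus strand, 5′ of the gene: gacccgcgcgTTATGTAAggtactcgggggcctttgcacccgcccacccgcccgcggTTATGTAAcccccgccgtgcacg
Ciart, chr3:95882261-95882290, minus strand, 5′ of the gene: gaggCACGTGcagaaccgCACGTGtctggg

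Library totals ranged from 29490771 to 74723284 counts, and each clock gene had between 553 and 13440 counts in a library. Kmt5b itself was at 86.5, 79.7 and 80.95 CPM (the usual count unit, scaled by edgeR to a common total in every library after TMM normalisation) in the GFP libraries and at 68.5, 80.3 and 63.9 CPM in those given the hairpin, of which replicate 2 lay within the GFP range. The knockdown did not pass the test (log2 fold change -0.22 ± 0.10, SE; edgeR adjusted p = 0.303), so all directions are given as the labels name the groups. Processed pseudogenes took 1.30% to 1.33% of counts in the GFP and 0.303% to 0.315% in the Kmt5b shRNA libraries, and the part of this difference in the results was not tested. Of the 10 clock genes, Nr1d2 alone matched such a copy. The 8 cortical excitatory neuron markers were all tested, summing to 1299 to 1584 CPM in the GFP and 1399 to 1512 CPM in the Kmt5b shRNA libraries. Of 8 markers of the hypothalamus and suprachiasmatic nucleus, the seat of the master clock, none reached 1 CPM in any library, and Six6, Lhx1 and Rax were at 0 in all. Oligodendrocyte markers summed to 2771 to 4244 CPM in the GFP against 1524 to 3221 CPM in the Kmt5b shRNA libraries, astrocyte markers to 2064 to 2132 against 1808 to 1975 CPM and microglia markers to 389 to 486 against 414 to 506 CPM. The part of these cell types in the results was not tested.

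None of the 10 clock genes passed the test between the groups. By edgeR's quasi-likelihood test, adjusted over all 24419 genes, 0 of 10 had an adjusted p under 0.05, beside 8.46% of all genes tested. All 10 are protein-coding. When only protein-coding genes were fitted, 0 of 10 clock genes and 655 of 15778 genes were called, a smaller share than 8.46%. At an unadjusted p under 0.05 the count was also 0, beside 17.4% of all genes, and DESeq2 (8.04% of all genes called) and limma voom (8.36%) called 0 as well. The clock genes' log2 fold changes had a median of -0.14, against -0.017 over all genes tested, and the largest in size was -0.21. The 95% intervals ran from -0.57 at the lowest bound to 0.42 at the highest, so no interval reached a doubling or a halving. CPM values of the groups did not overlap for 2 of the 10, beside 22.5% of all genes tested: 1 was higher with the hairpin (Arntl, beside 9.84%) and 1 lower (Cry2, beside 12.7%).

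**Figure D1:**
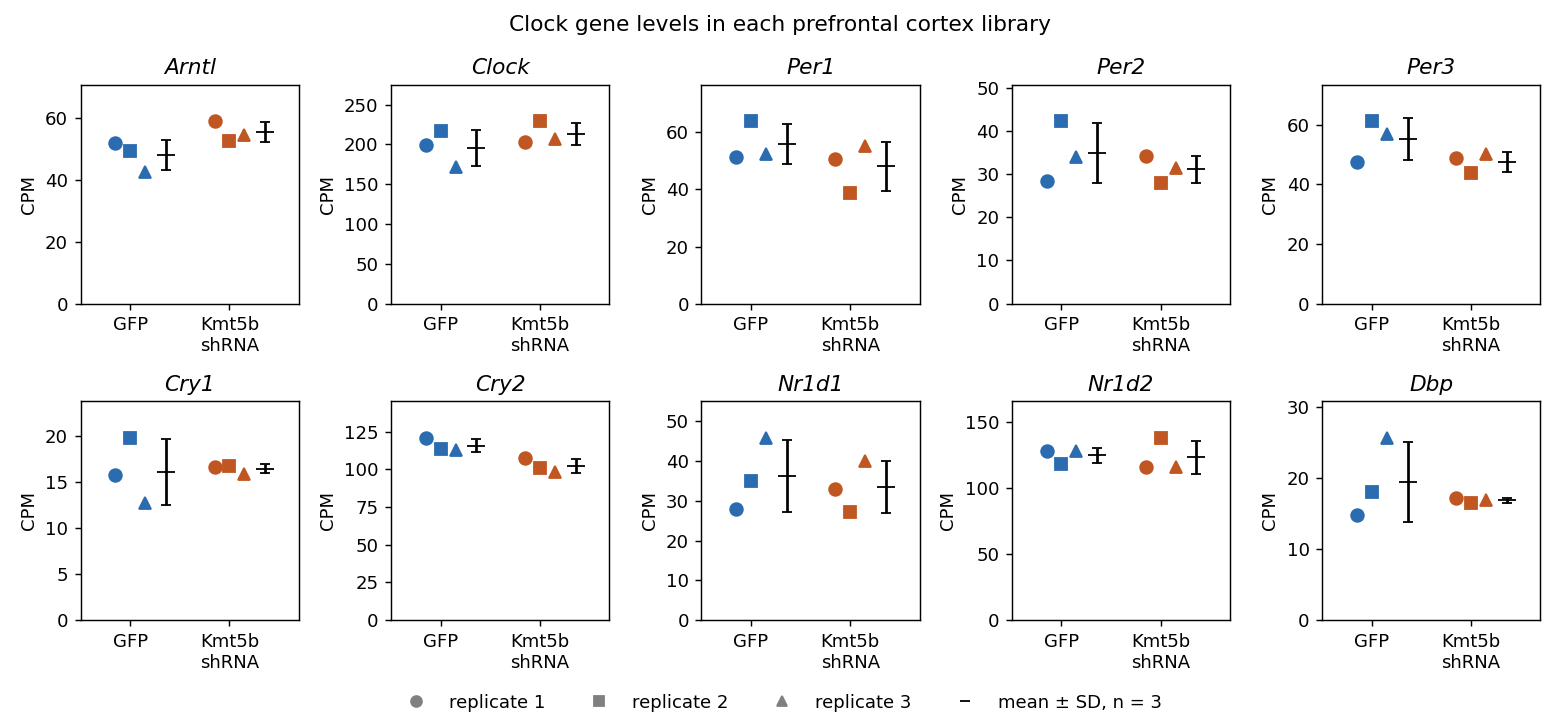
Level of each clock gene in CPM (vertical axes, starting at 0) in the 3 GFP and 3 Kmt5b shRNA libraries. Symbols mark the replicate number, which the main test did not treat as a pairing, and bars give the mean ± SD. The groups separate for Arntl and Cry2 only. The widest range of log2 CPM is that of Dbp in the GFP libraries, from 14.7 to 25.6 CPM. Per1, Cry2 and Nr1d2 spread more among the Kmt5b shRNA libraries.

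In the activating arm, Arntl was at 52.0, 49.4 and 42.7 CPM in the GFP libraries and at 58.9, 52.6 and 54.4 CPM in the Kmt5b shRNA libraries. Arntl, which encodes the obligate partner of Clock and lies on chromosome 7 from 113207465 to 113314126 (mm10), was thus above every GFP library in every Kmt5b shRNA library, but the gap between the highest GFP and the lowest Kmt5b shRNA library was small. Its group means were 48.0 ± 4.82 and 55.3 ± 3.21 CPM (SD, n = 3 each), with a log2 fold change of 0.20 ± 0.10 (SE; interval -0.015 to 0.42, edgeR adjusted p = 0.336). By a two-sided exact permutation test p was 0.1, the smallest that 3 against 3 libraries can give. Without GFP replicate 3, the lowest library, the Arntl log2 fold change was 0.13 (edgeR adjusted p = 0.714).

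Clock, on chromosome 5 from 76209868 to 76304792, encodes the other member of the activating pair and was the highest of the 10 in CPM. Its values were 199, 217 and 172 CPM in the GFP and 203, 229 and 207 CPM in the Kmt5b shRNA libraries. The groups overlapped, and the lowest value was again that of GFP replicate 3. The Clock log2 fold change was 0.12 ± 0.11 (SE; interval -0.11 to 0.35, edgeR adjusted p = 0.669), and it was 0.034 without GFP replicate 3.

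Npas2, which can stand in for Clock and is prominent in forebrain, had 37.0, 40.8 and 34.3 CPM in the GFP and 47.1, 41.2 and 49.6 CPM in the Kmt5b shRNA libraries. As with Arntl, the groups did not overlap, by a narrow gap, and the test was not passed, with a log2 fold change of 0.30 ± 0.11 (SE; interval 0.075 to 0.53, edgeR adjusted p = 0.116).

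Among the Per genes, which encode the period proteins of the repressing complex, all 3 had lower means in the Kmt5b shRNA libraries and overlapping groups. Per1, the member most directly induced by light, activity and stress hormones (chromosome 11, 69095217 to 69109960), was at 51.2, 63.8 and 52.4 CPM in the GFP and at 50.7, 38.6 and 55.2 CPM in the Kmt5b shRNA libraries. GFP replicate 2 was high and Kmt5b shRNA replicate 2 low, while the other 4 libraries lay between 50.7 and 55.2 CPM. The Per1 log2 fold change was -0.21 ± 0.13 (SE; interval -0.49 to 0.073, edgeR adjusted p = 0.486), and -0.074 without Kmt5b shRNA replicate 2 or -0.10 without GFP replicate 2.

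Per2 (chromosome 1, 91415982 to 91459324), the period gene whose loss most affects rhythm, was at 28.4, 42.2 and 33.9 CPM in the GFP and 34.1, 27.9 and 31.5 CPM in the Kmt5b shRNA libraries. GFP replicate 2 was again the highest library, and GFP replicate 1 was nearly as low as the lowest Kmt5b shRNA library. The Per2 log2 fold change was -0.16 ± 0.13 (SE; interval -0.44 to 0.13, edgeR adjusted p = 0.659), and it was 0.0073 without GFP replicate 2.

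Per3 (chromosome 4, 151003652 to 151044665), which is less needed for rhythm, had a fold change close to those of Per1 and Dbp. It was at 47.6, 61.2 and 56.9 CPM in the GFP and 48.7, 43.9 and 50.2 CPM in the Kmt5b shRNA libraries, with GFP replicate 1 inside the Kmt5b shRNA range. Its log2 fold change was -0.21 ± 0.11 (SE; interval -0.45 to 0.021, edgeR adjusted p = 0.351). Without GFP replicate 1 it was -0.31 (edgeR adjusted p = 0.0948), the lowest adjusted p of any of the 10 genes in any alternative, and without GFP replicate 2 it was -0.13.

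The cryptochromes Cry1 and Cry2, flavoprotein relatives that carry most of the repression, differed from each other in spread. Cry2 (chromosome 2, 92403646 to 92434043) was at 121, 113 and 113 CPM in the GFP and 107, 100.5 and 98.4 CPM in the Kmt5b shRNA libraries. Every Kmt5b shRNA library was below every GFP library, and among the 10 genes Cry2 was the 1 whose difference between means exceeded the range of the GFP libraries. Its means were 115.6 ± 4.43 and 102.1 ± 4.70 CPM (SD, n = 3 each), with a log2 fold change of -0.18 ± 0.092 (SE; interval -0.38 to 0.016, edgeR adjusted p = 0.347, two-sided exact permutation p = 0.1). With single libraries left out the Cry2 log2 fold change stayed between -0.22 and -0.14, and the edgeR adjusted p between 0.403 and 0.613.

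Cry1 (chromosome 10, 85131700 to 85185064), the later-peaking cryptochrome, was at 15.7, 19.8 and 12.7 CPM in the GFP libraries but within 15.9 to 16.8 CPM in all 3 Kmt5b shRNA libraries. The GFP values thus lay on both sides of the Kmt5b shRNA values, and the log2 fold change was 0.041 ± 0.14 (SE; interval -0.27 to 0.35, edgeR adjusted p = 0.939). It was 0.22 without GFP replicate 2 and -0.11 without GFP replicate 3.

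In the stabilising loop, Nr1d1 (chromosome 11, 98767932 to 98775333) was at 27.8, 35.1 and 45.8 CPM in the GFP and 33.1, 27.3 and 40.1 CPM in the Kmt5b shRNA libraries. Both groups held a low and a high library, and the log2 fold change was -0.11 ± 0.19 (SE; interval -0.54 to 0.31, edgeR adjusted p = 0.853). Without GFP replicate 3 it was 0.094, and without Kmt5b shRNA replicate 2 it was 0.013. The 3′ end of Nr1d1 shares 263 of its 3077 exonic bases with Thra on the opposite strand, and the sources used here do not state whether counting used strand, so reads of the 2 genes there cannot be told apart. Thra, a thyroid hormone receptor, was at 419 to 518 CPM in the GFP and 455 to 519 CPM in the Kmt5b shRNA libraries.

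Nr1d2 (chromosome 14, 18204054 to 18239127), the second REV-ERB, was at 128, 118 and 128 CPM in the GFP and 116, 138 and 116 CPM in the Kmt5b shRNA libraries. The groups overlapped fully, with a log2 fold change of -0.017 ± 0.10 (SE; interval -0.23 to 0.20, edgeR adjusted p = 0.967). A processed pseudogene listed in GENCODE M21, AC170187.1, matches Nr1d2 over 1385 bases at 96.1% identity and has no row of its own in the count tables, so the Nr1d2 value is uncertain. Cry2 shares 295 of its 6320 exonic bases with D930015M05Rik and Arntl 33 of 7523 with Gm45355, both on the opposite strand. Outside Nr1d1, Nr1d2 and Dbp, no clock gene shared more than 103 bases at 90% identity with another coding gene or a pseudogene.

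Dbp (chromosome 7, 45705088 to 45710203), an output factor with one of the steepest daily rhythms known, was at 14.7, 17.99 and 25.6 CPM in the GFP libraries and at 17.2, 16.5 and 16.8 CPM in the Kmt5b shRNA libraries. The Kmt5b shRNA libraries agreed closely, at 16.8 ± 0.349 CPM, while the GFP libraries spread to 19.4 ± 5.58 CPM (SD, n = 3 each) around them. The log2 fold change was -0.21 ± 0.17 (SE; interval -0.57 to 0.15, edgeR adjusted p = 0.626), and without GFP replicate 3 it was 0.047. Dbp shares 539 of its 2993 exonic bases with Sphk2 on the opposite strand. Sphk2, a sphingosine kinase, was at 23.2 to 23.8 CPM in the GFP and 25.2 to 28.6 CPM in the Kmt5b shRNA libraries (log2 fold change 0.22, edgeR adjusted p = 0.264).

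**Figure D2:**
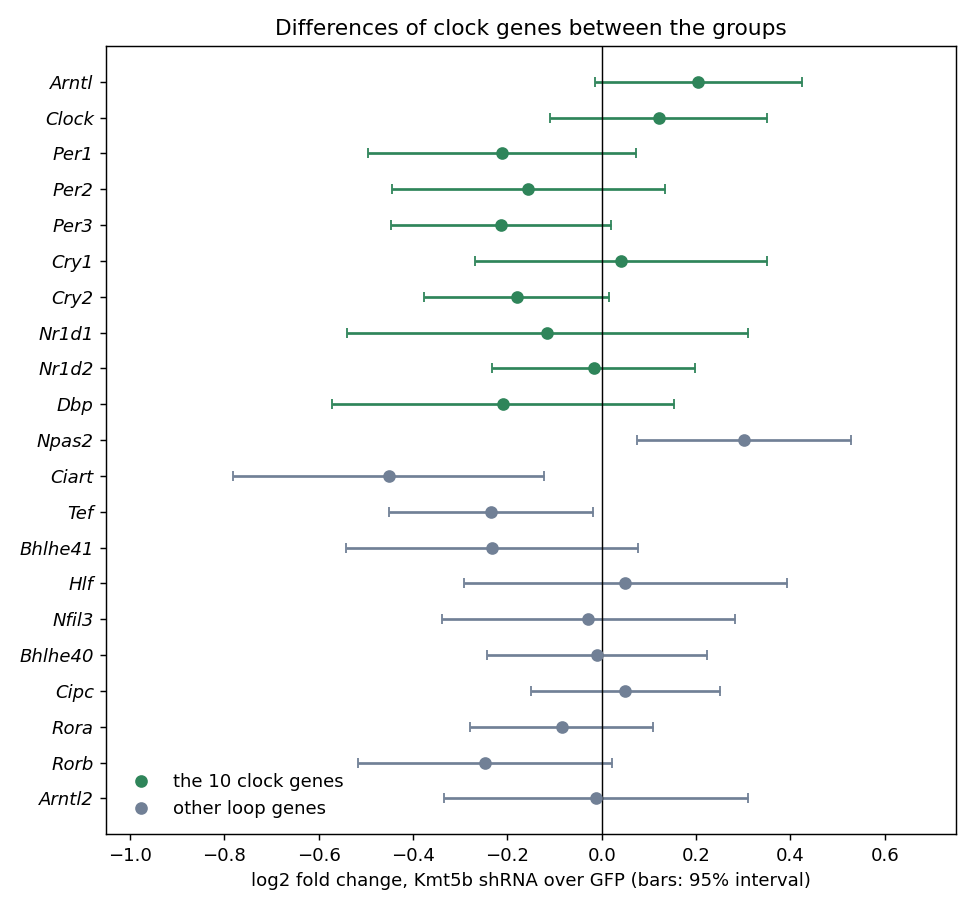
Log2 fold change of Kmt5b shRNA over GFP (horizontal axis) with 95% intervals for the 10 clock genes and 11 other genes of the loop. The intervals of all 10 clock genes cross 0, and those of Npas2, Tef and Ciart do not, although none of these 3 passed after adjustment over all genes.

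Per kilobase of annotated exon, and over all 6 libraries, Nr1d2 was the highest of the 10 at a mean of 22.9 CPM per kb (21.4 to 25.5), above the range of Cry2 at 17.2 CPM per kb (15.6 to 19.1). Clock followed at 14.9, Nr1d1 at 11.3, Per1 at 9.23, Arntl at 6.87, Dbp at 6.06, Per2 at 5.64, Per3 at 5.35 and Cry1 at 4.87 CPM per kb. From Cry2 downward the ranges of all neighbours in this order overlapped. Genes further apart in the order could still be separate, as Cry2 was above every value of Nr1d1 and Clock above every value of Per1. The place of Nr1d2 carries the uncertainty of its pseudogene match. Clock, the highest of the 10 in CPM, has 13727 bases of annotated exon and so fell below Nr1d2 and Cry2 on this scale.

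The difference between group means was smaller than the range among the GFP libraries for 9 of the 10 clock genes, Cry2 being the exception. The share over all genes was not taken, so this count is not a trait of clock genes. Across the GFP libraries the range of log2 CPM (with 0.5 added to each CPM) was 0.78 for Dbp, 0.71 for Nr1d1, 0.62 for Cry1 and 0.56 for Per2, against a median of 0.27 over the 15056 genes with an average log2 CPM of at least 1. The median of the 10 clock genes in the GFP libraries was 0.35, with Cry2 at 0.095 and Nr1d2 at 0.12. Across the Kmt5b shRNA libraries the range was 0.058 for Dbp and 0.073 for Cry1, but 0.55 for Nr1d1 and 0.51 for Per1. The median there was 0.18 for the 10 clock genes and 0.24 for the 15056 genes. Among the GFP libraries Dbp and Nr1d1 thus varied most, and the spread differed between genes of the loop in both groups.

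The libraries at the extremes were read off after the values were seen, and are given as a description. GFP replicate 3 was the highest of the 6 for Nr1d1 and Dbp and the lowest for Arntl, Clock and Cry1, and outside the 10 genes it was also the highest for Ciart (14.0 CPM) and Bhlhe41 (17.0 CPM) and the lowest for Npas2 (34.3 CPM). GFP replicate 2 was the highest for Per1, Per2, Per3 and Cry1. Kmt5b shRNA replicate 2 was the lowest for Per1, Per2, Per3 and Nr1d1 and the highest for Clock and Nr1d2. In GFP replicate 3 the activators were thus low and Nr1d1 and Dbp high. Their relatives Nr1d2 (128 CPM) and Tef (353 CPM) were not highest there. Nr1d2 was highest in Kmt5b shRNA replicate 2 (138 CPM) and Tef in GFP replicate 1 (369 CPM). GFP replicate 3 is also the most deeply sequenced library, at 74723284 counts, and the part of depth was not tested.

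**Figure D3:**
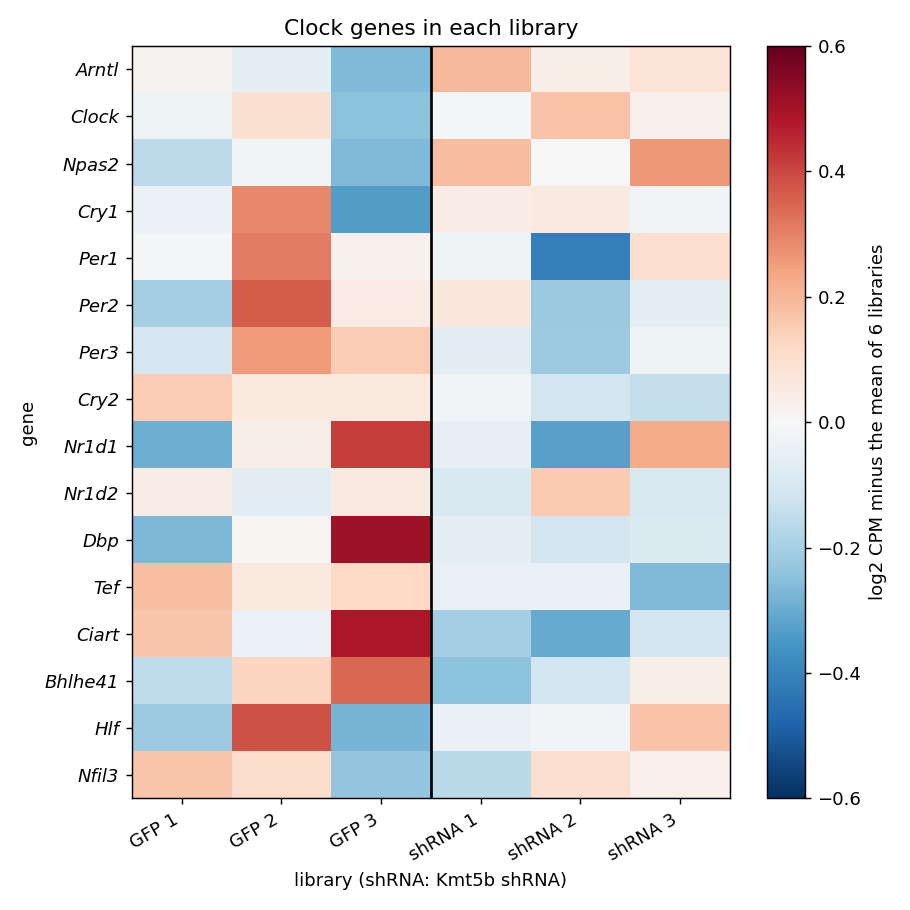
Log2 CPM of clock and loop genes (rows) in each library (columns) minus the mean of the 6 libraries, red for higher and blue for lower; the black line divides GFP from Kmt5b shRNA. In GFP replicate 3 Arntl, Clock, Npas2 and Cry1 are blue and Nr1d1, Dbp, Ciart and Bhlhe41 red, while GFP replicate 2 is red for Per1, Per2, Per3 and Cry1.

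Ratios of genes from opposite arms, taken within a library and so free of library size, are a common way to set clock phase side by side; they are described without a test. The log2 ratio of Arntl to Dbp was 1.82, 1.46 and 0.74 in the GFP libraries, against 1.77, 1.67 and 1.69 with the hairpin. GFP replicate 3 was the lowest and stood apart from the other 5 libraries. The log2 ratio of Arntl to Nr1d1 was 0.90, 0.49 and -0.10 in the GFP and 0.83, 0.95 and 0.44 in the Kmt5b shRNA libraries. GFP replicate 3 was the lowest, and Kmt5b shRNA replicate 3 lay below 2 of the GFP libraries. The sign of these ratios of CPM has no meaning, since the genes differ in exon length, and only their differences between libraries are compared. The log2 ratio of Npas2 to Nr1d1 was 0.41, 0.22 and -0.42 in the GFP and 0.51, 0.60 and 0.31 in the Kmt5b shRNA libraries, with GFP replicate 3 the lowest. That library was the lowest for Arntl and Npas2 and the highest for Nr1d1 and Dbp. Its place in these ratios follows from those values, and the ratios share genes, so they are not independent.

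The ratio of Arntl to Per2 gave another order. Its log2 value was 0.87, 0.23 and 0.33 in the GFP and 0.79, 0.92 and 0.79 in the Kmt5b shRNA libraries. GFP replicate 2, not 3, was the lowest here, and GFP replicate 1 lay within the Kmt5b shRNA range. GFP replicate 1 lay within or just beyond the Kmt5b shRNA range in all 4 ratios.

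Between the groups, the mean log2 ratio was higher in the Kmt5b shRNA libraries by 0.38 for Arntl to Dbp, 0.31 for Arntl to Nr1d1, 0.35 for Arntl to Per2 and 0.40 for Npas2 to Nr1d1, and the groups overlapped in all 4. Without GFP replicate 3 these differences were 0.075, 0.043, 0.28 and 0.16, and without GFP replicate 1 they were 0.62, 0.54, 0.55 and 0.57. The Arntl to Per2 difference was 0.23 without GFP replicate 2, and that of Arntl to Nr1d1 was 0.21 without Kmt5b shRNA replicate 2. The SD of the Arntl to Dbp ratio was 0.55 among GFP and 0.054 among Kmt5b shRNA libraries. The ratios thus spread more among the GFP than among the Kmt5b shRNA libraries, and the difference between the groups was not tested against that spread. Whether the libraries differ in clock phase was not tested.

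**Figure D4:**
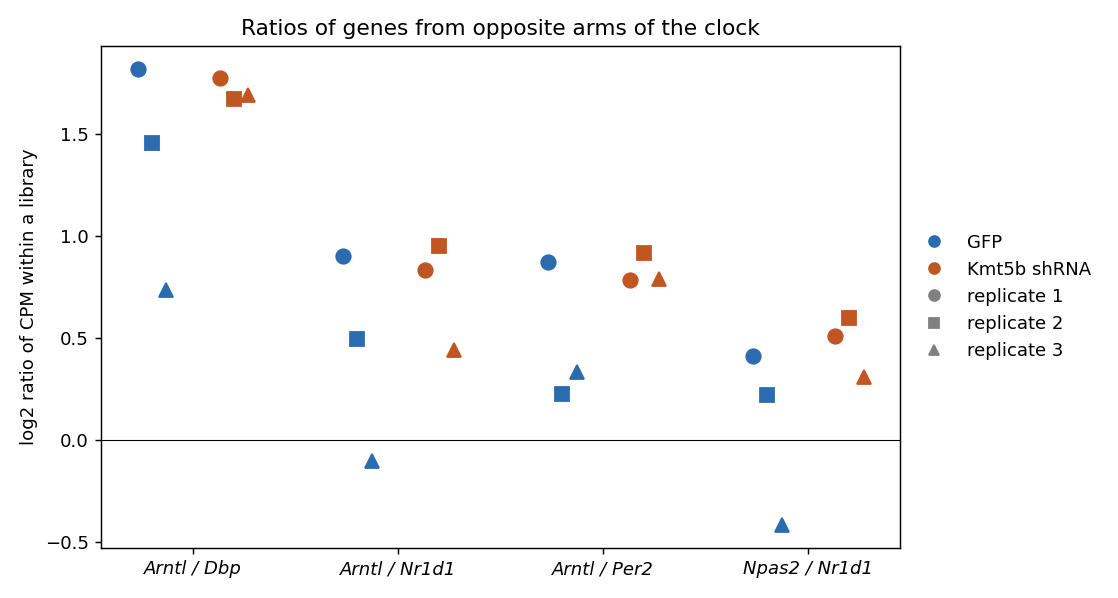
Log2 ratio of CPM within each library (vertical axis) for 4 pairs of genes from opposite arms of the clock; colour gives the group and the symbol the replicate number. GFP replicate 3 is lowest for Arntl to Dbp at 0.74, Arntl to Nr1d1 at -0.10 and Npas2 to Nr1d1 at -0.42, and GFP replicate 1 lies near the Kmt5b shRNA libraries.

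Of 12 partners of the core clock, 12 were tested and 0 passed, beside 8.46% of all genes, with a median log2 fold change of -0.023. An unadjusted p under 0.05 was found for 3 of the 12 (Npas2, Ciart and Tef), beside 17.4% of all genes. Ciart, which represses the Clock and Arntl pair, was at 11.1, 9.63 and 14.0 CPM in the GFP and 8.504, 7.90 and 9.11 CPM in the Kmt5b shRNA libraries. All Kmt5b shRNA libraries were below all GFP libraries, with a log2 fold change of -0.45 ± 0.15 (SE; edgeR adjusted p = 0.102). The edgeR adjusted p of Ciart was 0.0465 without GFP replicate 2, and up to 0.442 with another library left out. Tef, a relative of Dbp that binds the same D-boxes, was at 369, 338 and 353 CPM in the GFP and 315, 315 and 270.4 CPM in the Kmt5b shRNA libraries, again without overlap (-0.23 ± 0.10, edgeR adjusted p = 0.229). With total counts in place of TMM scaling the Tef adjusted p was 0.0445. Bhlhe41, a repressor at E-boxes, overlapped between the groups, at 11.9 to 17.0 against 11.2 to 13.7 CPM (-0.23 ± 0.14, edgeR adjusted p = 0.478).

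Of 13 kinases, ubiquitin ligases and other modifiers of clock proteins, 13 were tested and 0 passed, beside 8.46% of all genes, with a median log2 fold change of 0.075. An unadjusted p under 0.05 was found for 1 of the 13, beside 17.4% of all genes. That gene was Nono, an RNA-binding cofactor of the Per proteins, at 96.6 to 117 CPM in the GFP and 119 to 129 CPM in the Kmt5b shRNA libraries (0.23 ± 0.10, edgeR adjusted p = 0.246). Fbxl21, a ligase for cryptochromes, had the smallest p of the lower members (-0.21 ± 0.20, edgeR adjusted p = 0.690). By direction, 10 of the 13 were above 0 and 3 below, beside 11544 above and 12875 below among all 24419 genes tested.

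Of 7 output genes, 5 were tested and 2 passed, both higher, beside 2.77% of all genes called higher. Like the other lists, this one was chosen with earlier results of these data known. The count therefore cannot be read as a result about output genes as a set. Fabp7, an astrocyte fatty acid binding protein whose transcript cycles across the brain and is a known target of Nr1d1, was at 19.4, 19.1 and 22.6 CPM in the GFP and 51.1, 50.4 and 55.7 CPM in the Kmt5b shRNA libraries. The groups were far apart, with a log2 fold change of 1.36 ± 0.10 (SE; edgeR adjusted p = 1.35e-07), and the call held in all 16 alternatives. Of 8 astrocyte markers, 2 were called in the opposite direction, beside 5.69% of all genes called lower. These were the water channel gene Aqp4 (-0.64, edgeR adjusted p = 0.00178) and the gap junction gene Gja1 (-0.51, edgeR adjusted p = 0.0114). By direction, 6 of the 8 were below 0 and 2 above, Gfap (0.39, edgeR adjusted p = 0.545) and Sox9 (0.26, edgeR adjusted p = 0.416). The part of astrocytes in the Fabp7 result was not tested. Cdkn1a, a cell cycle inhibitor, was at 14.4, 16.2 and 11.3 CPM in the GFP and 20.6, 17.2 and 27.0 CPM in the Kmt5b shRNA libraries (0.64 ± 0.17, edgeR adjusted p = 0.0331), and it did not pass when GFP replicate 1 (adjusted p = 0.0762) or 3 (0.121) or Kmt5b shRNA replicate 1 (0.0769) or 3 (0.111) was left out, nor when only genes sharing no sequence (0.125) or only protein-coding genes (0.0903) were fitted, nor with total counts in place of TMM scaling (0.0862) or the replicate block (0.0985). Wee1, a cell cycle kinase under E-box control, was at 24.7 to 33.1 against 23.2 to 25.8 CPM (-0.20 ± 0.12, edgeR adjusted p = 0.438).

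Inputs that raise Per1 and Per2 were examined beside them. Of 12 genes induced by neuronal activity, 12 were tested, with a median log2 fold change of -0.18. Over all genes 5.69% were called lower, and 184 of 15778 when only protein-coding genes were fitted. Of the 12, 1 was lower and 0 higher. The 1 was Sik1, a kinase that restrains the response of Per1 to light, at 18.3, 16.4 and 13.7 CPM in the GFP and 9.56, 10.4 and 12.2 CPM in the Kmt5b shRNA libraries (-0.59 ± 0.14, edgeR adjusted p = 0.0138). Sik1 did not pass when GFP replicate 1 (adjusted p = 0.0687) or 2 (0.0506) or Kmt5b shRNA replicate 1 (0.102) was left out, nor when only genes sharing no sequence were fitted (0.0658). Sik1 and Dusp1 were the 2 of the 12 with an unadjusted edgeR p under 0.05, beside 17.4% of all genes. Dusp1 was at 34.6, 22.6 and 20.2 CPM in the GFP and 18.8, 12.3 and 13.9 CPM in the Kmt5b shRNA libraries, without overlap. It did not pass (log2 fold change -0.79, edgeR adjusted p = 0.0874). Arc, a synaptic immediate early gene, was at 453, 236 and 163 CPM in the GFP and 201, 146 and 196 CPM in the Kmt5b shRNA libraries. GFP replicate 1 was the highest library for Arc and Fos (49.0 CPM). GFP replicate 2 was the highest for Egr1 (111 CPM) and Fosb (10.9 CPM), as it was for Per1 and Per2. The part of activity in the Per values was not tested. Npas4, an activity-induced transcription factor, spread from 10.1 to 38.2 CPM among Kmt5b shRNA libraries (log2 fold change 0.20, edgeR adjusted p = 0.935).

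Of 10 glucocorticoid-induced genes, 10 were tested and 1 passed, the Cdkn1a already named, beside 8.46% of all genes, with a median log2 fold change of -0.078. An unadjusted p under 0.05 was found for 5 of the 10, beside 17.4% of all genes, in both directions: Cdkn1a and Zbtb16 were above 0 and Sgk1, Nfkbia and Pdk4 below. The lower member of smallest p was Pdk4, a mitochondrial kinase, at 8.61, 11.2 and 6.95 CPM in the GFP and 5.82, 6.82 and 4.65 CPM in the Kmt5b shRNA libraries (-0.62 ± 0.20, edgeR adjusted p = 0.0735). Pdk4 passed in 5 alternatives, with adjusted p = 0.0431 in DESeq2, 0.0119 with no filter on low counts, 0.0192 with the replicate block and, on leaving out a library, 0.0273 (GFP replicate 3) and 0.0456 (Kmt5b shRNA replicate 2). Fkbp5, a steroid receptor cochaperone, did not pass, at 21.7 to 23.0 against 25.1 to 25.4 CPM (edgeR adjusted p = 0.431).

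Finally, the genes whose pattern over the 6 libraries lay closest to 2 of the clock genes were found by the root mean square difference of centred log2 CPM among 15056 genes. Closest to Dbp were Synpo2 (0.058), Gsap (0.064) and Dnah8 (0.071), beside 0.24 for Dbp against a flat line. Each of these was highest in GFP replicate 3, as Synpo2, an actin-binding protein, with 7.59 CPM there and 4.54 to 5.47 CPM elsewhere. Closest to Arntl were the kinase Akt2 (0.026), Trir (0.026) and the SUMO protease Senp3 (0.030), beside 0.14 for Arntl against a flat line. These likenesses are over 6 libraries of the same tissue and are given as a description.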

How the data were processed

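Bulk RNA of prefrontal cortex was measured in 6 libraries, grouped and numbered by their titles. The authors deposited raw read counts per gene symbol. Per the labels' protocols, ribosomal RNA was removed before stranded library preparation, Cutadapt trimmed the reads and TopHat2 placed them on RefSeq mRNAs, while the submitters' processing notes name STAR, featureCounts, DESeq2 and mm10. Strand setting and versions are not given in the sources used here.

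The count test was edgeR 4.0.16 under R 4.3.3 (filterByExpr, TMM scaling, legacy=TRUE, robust quasi-likelihood), adjusted by Benjamini-Hochberg with a threshold of 0.05. For the SE, the size of the log2 fold change was divided by √F, and intervals have 95% confidence. Coordinates and exon lengths are from GENCODE M21, which 53825 symbols matched, and motif windows from RefSeq (GRCm38.p6); the RORE letters were settled after earlier searches of these windows. Genes sharing no sequence were protein-coding genes with no match of 200 bases, or of 50% of length, to another coding gene or pseudogene (BLAST+ 2.17.0, longest transcripts, 90% identity). The test was checked on simulated counts. Replicates of a group differed by more than sampling noise (chi-square per gene 17.9 to 42.7).

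Members and lists were chosen with earlier results of these data known. Named were the 10 clock genes, Kmt5b, Npas2, Ciart, Tef, Bhlhe41, Fabp7, up to 4 called genes of each list per direction (otherwise that of smallest p) and the 3 closest patterns to Dbp and Arntl. Thra, Sphk2, Arc, Fos, Dusp1, Fkbp5, Zbtb16, Sgk1, Nfkbia, Aqp4, Gja1, Hlf and Nfil3 were named after their values were seen. So were Egr1, Fosb, Gfap and Sox9. Alternatives were DESeq2 1.42.0, limma voom 3.58.1, other scalings, filters and gene sets, a replicate block and each library left out.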

Additional observations from a re-analysis of the deposited data

How the results depend on the processing

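The count of clock genes called was 0 of 10 in each of 16 alternatives, although the fit of genes sharing no sequence held 7 of them. Of 157 values of the 10 genes under these alternatives, 147 kept their direction. Cry1 turned to -0.0048 with total counts only. With single libraries left out, the log2 fold changes that changed direction ranged from -0.28 to 0.0073 for Per2, from -0.11 to 0.22 for Cry1, from -0.27 to 0.094 for Nr1d1, from -0.10 to 0.035 for Nr1d2, from -0.38 to 0.047 for Dbp and from -0.43 to 0.54 for Npas4. The cause was not tested. Of all 24419 genes, 2066 were called (676 higher, 1390 lower). Among genes sharing no sequence 161 of 12350 were called (108 higher, 53 lower). Among protein-coding genes 655 of 15778 were called (471 higher, 184 lower). With the replicate number as a block, 0 clock genes and 2211 of all genes were called. The deviations of same-numbered libraries correlated at -0.078, -0.12 and 0.37. Those of differently numbered GFP and Kmt5b shRNA libraries ran from -0.38 to 0.44. So few correlations cannot settle whether the numbers pair the libraries. Under the block Cdkn1a had an adjusted p of 0.0985 and Pdk4 of 0.0192. With 3 libraries a group, differences within the intervals given could not be told from 0.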

Other observations

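Hlf, a D-box factor related to Dbp and Tef, did not follow Dbp in the GFP libraries. It was at 88.4, 134 and 84.6 CPM there and at 100.01, 102 and 116 CPM in the Kmt5b shRNA libraries, highest in GFP replicate 2, where Per1, Per2 and Per3 were highest. Nfil3, which represses D-box genes, was at 12.2, 11.7 and 9.09 CPM in the GFP libraries, lowest in GFP replicate 3, where Dbp was highest, and at 9.61, 11.6 and 11.05 CPM in the Kmt5b shRNA libraries.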
